A study of Mus musculus with 60 samples.

Results

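The livers compared here came from mice given 0.2 Gy of 56Fe ions and mice given 0.2 Gy of 28Si ions, both 1 month (30 days) after exposure, and the members are the 6 libraries of those mice, 3 per ion, of 60 libraries in the series. They were chosen by group and time label alone. All were male C3H/HeNCrl mice of 8 to 10 weeks at the start, an inbred strain prone to liver tumors, and each mouse received its dose to the whole body at 600 MeV per nucleon for 56Fe and 350 MeV per nucleon for 28Si, so ion and beam energy cannot be told apart. Control mice are described as non-irradiated or sham irradiated. The fits also took in 3 control and 3 16O mice (0.2 Gy) of the same time. The beam energy of 16O differed from those of 56Fe and 28Si. After exposure the mice were shipped to a second animal facility and quarantined for 1 month, and the part of this in the values at 1 month was not tested. Ribosome-depleted RNA of the left liver lobe was sequenced in paired reads.

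56Fe and 28Si are both heavy ions of high charge and energy, which deposit energy densely along their tracks. Liver is built mainly of hepatocytes, which make plasma proteins, sterols, bile acids and glucose and which follow a daily program set by the circadian clock. In that clock ARNTL (BMAL1) and CLOCK switch on the Per and Cry genes, the products of which then hold ARNTL and CLOCK in check, so that Arntl and the Per genes peak at opposite hours of the day. The hour at which the mice were killed is not given in the sources used here.

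Depth at 1 month, recovered from the smallest steps of the deposited values, was 15890199 to 20122263 mapped read pairs in the 56Fe libraries and 19586187 to 24720676 in the 28Si libraries. Between 52.8% and 53.1% of mapped pairs fell in annotated transcripts in the 56Fe livers, and 66.4%, 49.6% and 53.8% did in the 28Si livers, so 28Si mouse 1 stood apart in this share. Within an ion, libraries had Spearman correlations of 0.977 to 0.984 across genes, and between ions 0.962 to 0.975. The summed level of 12 hepatocyte marker genes was 28411 to 28520 RPKM in the 56Fe livers and 26623 to 37056 in the 28Si livers, with 28Si mouse 1 highest. RPKM (reads per kilobase of transcript, scaled to the mapped reads of a library) is the unit of all levels below, as deposited and summed over the transcripts of a gene. Differences are 56Fe minus 28Si on the log2 scale of RPKM + 0.1 after scaling of libraries, with the standard error (SE), and "passed" means an adjusted p of at most 0.05.

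Of 11539 genes tested, 182 (1.58%) passed with a fold of at least 2, with 100 higher and 82 lower in 56Fe livers. Without the fold limit 1081 genes (9.37%) passed, 462 (4.00%) higher and 619 (5.36%) lower in 56Fe. For 3743 genes (32.4%) the 3 mice of one ion did not overlap with the 3 of the other, and the median difference over all genes was 0.00. Leaving out 1 mouse gave 138 to 197 genes past both limits, the lowest without 56Fe mouse 2, and without the fold limit 436 to 857 in place of 1081. The latter count was 436 without 56Fe mouse 2, 485 without 28Si mouse 1, 513 without 56Fe mouse 3 and 606 without 56Fe mouse 1. Counts of list members below are read against these shares, and in bulk liver fewer cells of a type and less RNA per cell cannot be told apart. The lists with most members past the test were those of the circadian clock, the mitochondrial genome, the chaperones of the endoplasmic reticulum (ER) and cholesterol synthesis. Among the genes named below that were higher in 56Fe, Mt2, Usp2 and Mt1 had the largest differences.

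The clock genes differed in both of their arms. Of 17 core clock genes tested, 9 were higher and 2 lower in 56Fe, with a median difference of 0.42. Arntl, the activator at the head of the loop (chr7:113207465-113314126, build GRCm38), was at 0.498, 0.420 and 0.422 RPKM in the 56Fe livers and 3.8, 2.31 and 2.88 in the 28Si livers, a difference of -2.42 ± 0.20 (adjusted p = 2.52e-05). The lowest 28Si mouse was above the highest 56Fe mouse by a wide margin. Its partner Clock had 4.81, 4.16 and 3.77 RPKM against 10.9, 8.71 and 9.27, a difference of -1.10 ± 0.11 (adjusted p = 8.06e-05).

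The repressors that ARNTL and CLOCK drive moved the other way. Per1 was at 4.45, 2.8 and 2.8 RPKM after 56Fe and 1.23, 1.09 and 1.13 after 28Si (1.48 ± 0.15, adjusted p = 8.06e-05). Per2 was at 5.59, 3.89 and 4.91 against 1.6, 1.66 and 2.61 RPKM (1.32 ± 0.21, adjusted p = 0.00197). Per3 was at 6.25, 4.37 and 3.98 against 0.811, 1.06 and 1.21 RPKM (2.18 ± 0.22, adjusted p = 0.0001). In each of these 3 Per genes every 56Fe mouse was above every 28Si mouse. Ciart, a further repressor of ARNTL and CLOCK, gave 2.55, 1.44 and 2.13 against 0.352, 0.207 and 0.270 RPKM (2.54 ± 0.20, adjusted p = 2.22e-05). Bhlhe41 and Bhlhe40, repressors that compete for the same DNA sites, were higher in 56Fe by 2.30 and 0.79, Cry2 by 0.94, and the nuclear receptor gene Nr1d2 by 0.42. Nr1d2 was past the test in 1 of the 6 fits that left out a mouse. Cry1 (-0.53, adjusted p = 0.101) and Nr1d1 (0.20, adjusted p = 0.416), named after their values were seen, did not pass.

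**Figure D1:**
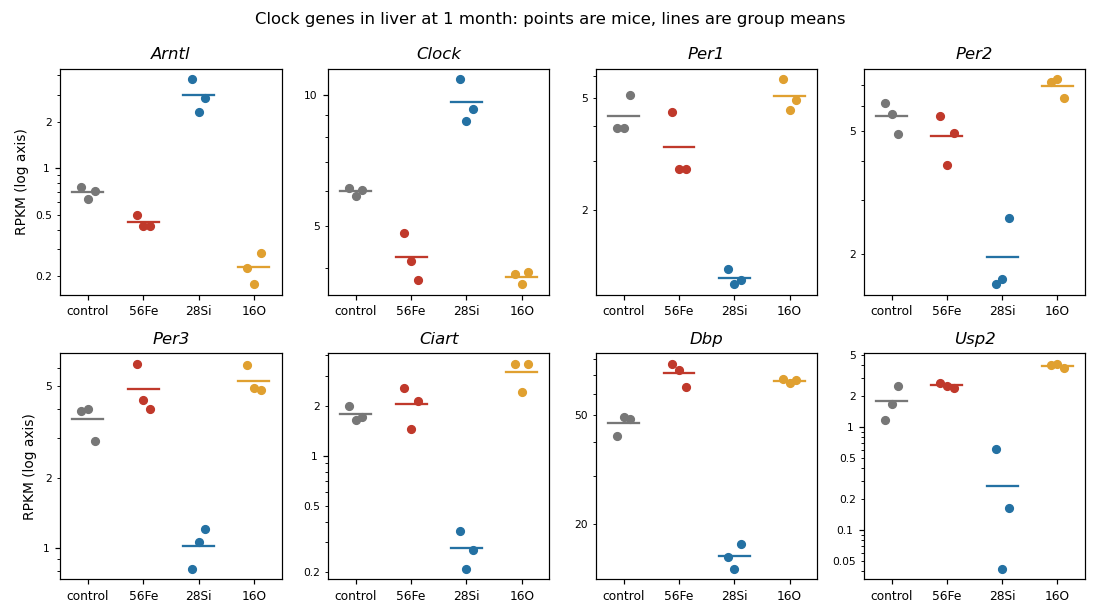
RPKM of 8 clock genes on log axes at 1 month, with a point for each mouse and a line at each group's mean for control, 56Fe, 28Si and 16O livers. In every panel the 3 28Si mice lie apart from the 3 56Fe mice, above them for Arntl and Clock and below them for Per1, Per2, Per3, Ciart, Dbp and Usp2.

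Genes that carry the clock's rhythm to the rest of the cell followed the Per genes. Of 15 output genes, which share Ciart with the core list, 8 were higher and 1 lower in 56Fe, with a median of 0.74. Dbp, a transcription factor of the PAR bZIP family and one of the strongest cycling genes of liver, was at 77.1, 73.1 and 63.5 RPKM after 56Fe and 15.2, 13.7 and 16.9 after 28Si (2.27 ± 0.11, adjusted p = 7.61e-08). Its relatives Tef (1.22 ± 0.15) and Hlf (0.71 ± 0.15) were higher by less. The deubiquitinase Usp2 was at 2.7, 2.55 and 2.42 RPKM against 0.610, 0.042 and 0.164 (3.23 ± 0.37, adjusted p = 0.00025), and the spread among the 28Si mice was wide at that low level. Wee1, a kinase that holds cells before mitosis, was at 0.814, 0.709 and 0.865 against 0.269, 0.177 and 0.233 RPKM (1.51 ± 0.22). Por and Cys1 passed with 0.58 and 0.74, each in 2 of the 6 fits that left out a mouse. The lower gene was Tfrc, the transferrin receptor, at 4.43, 3.57 and 3.75 RPKM against 9.92, 6.23 and 11.4 (-1.11 ± 0.17, adjusted p = 0.00152).

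Against the control mice, which both comparisons share, it was the 28Si livers that passed for the clock. In the core list 7 genes passed for 28Si and 0 for 56Fe (against 0.650% and 1.20% of all genes), and in the output list 7 and 2. Arntl was 1.88 from control in 28Si (adjusted p = 0.000477) and -0.54 in 56Fe (adjusted p = 0.262), with controls at 0.760, 0.635 and 0.710 RPKM. Per3 was -1.76 from control in 28Si (adjusted p = 0.00225) and 0.43 in 56Fe (adjusted p = 0.455), with controls at 3.93, 3.99 and 2.9 RPKM. The 16O mice were at 0.224, 0.177 and 0.284 RPKM of Arntl and 6.17, 4.89 and 4.8 of Per3, on the side of the 56Fe mice. The part of the hour of sampling in these differences was not tested.

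The promoters of Ciart and Per3 are shown because they hold the DNA words through which the clock factors act, and both genes lay far apart between the ions. Sequences are RefSeq promoters of build GRCm38.p6, from 250 bases before to 50 after a gene's start. An E-box (CACGTG, read on both strands), the site of ARNTL and CLOCK, was found in 7.15% of all 32851 such promoters, and in those of 3 of 8 core clock genes that passed and have an entry (Bhlhe41, Ciart and Per1). A D-box (TTATGTAA or TTACGTAA, both strands), the site of DBP, TEF and HLF, was found in 1.06% of all promoters and in Per3 of those 8. Bhlhe40 and Per2 had no entry. Among all 12 tested core clock genes with an entry 4 held an E-box, so Cry1 held it too and did not pass. In the list of output genes an E-box was found in 2 of 8 that passed and have an entry (Ciart and Tef). Of all 14 tested output genes with an entry 2 held an E-box and 0 a D-box. Capitals mark the 3 E-boxes of Ciart (chr3:95882179-95882478, minus strand) and the 2 D-boxes of Per3 (chr4:151044616-151044915, minus strand).
Ciart: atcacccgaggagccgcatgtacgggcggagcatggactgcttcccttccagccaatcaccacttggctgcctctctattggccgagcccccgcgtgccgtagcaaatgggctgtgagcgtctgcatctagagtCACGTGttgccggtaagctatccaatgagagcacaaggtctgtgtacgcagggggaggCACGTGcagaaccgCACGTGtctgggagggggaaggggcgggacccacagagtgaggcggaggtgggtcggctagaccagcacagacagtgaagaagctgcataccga
Per3: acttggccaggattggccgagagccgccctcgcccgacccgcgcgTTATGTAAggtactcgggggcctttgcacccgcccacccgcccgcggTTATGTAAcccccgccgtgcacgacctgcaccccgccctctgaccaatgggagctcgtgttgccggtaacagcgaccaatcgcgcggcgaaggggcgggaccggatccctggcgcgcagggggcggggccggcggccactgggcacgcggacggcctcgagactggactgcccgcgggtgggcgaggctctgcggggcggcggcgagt

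Metallothioneins, small cysteine-rich proteins that bind zinc and copper, were higher in 56Fe livers. Mt2 (chr8:94172664-94173568, build GRCm38) was at 25.7, 25 and 15.3 RPKM in the 56Fe livers and 3.4, 0.554 and 1.1 in the 28Si livers, a difference of 4.00 ± 0.47 (adjusted p = 0.000268). Mt1, its neighbor on the chromosome (chr8:94179082-94180327), was at 54.7, 73 and 37.5 against 12.9, 3.73 and 5.63 RPKM (3.07 ± 0.36, adjusted p = 0.000268). The groups did not overlap in either gene, and both stayed past the test in all 6 fits that left out a mouse. Controls were at 12.4, 13 and 11.1 RPKM of Mt1 and 1.46, 2.73 and 4.78 of Mt2, and 16O mice at 120.1, 44 and 62.1 and 50.4, 16.8 and 32.8. Against control Mt2 passed in 56Fe (2.97, adjusted p = 0.00718) and not in 28Si (-1.03, adjusted p = 0.295). Of the 5 zinc transporter genes tested, Slc30a10, a manganese exporter, passed and was lower, at 3.81, 2.78 and 2.61 against 8.03, 5.94 and 8.24 RPKM (-1.19 ± 0.16). In the fit over all 60 libraries the adjusted p of Mt1 was 0.0603.

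Both metallothionein promoters are shown for their metal response elements (TGCACNC or TGCGCNC, both strands), the sites of the zinc-sensing factor MTF1. Such short words are common: 25.7% of all promoters held at least 1. Mt2 (chr8:94172368-94172667, plus strand) held 4 and Mt1 (chr8:94178839-94179138, plus strand) held 3, in capitals.
Mt2: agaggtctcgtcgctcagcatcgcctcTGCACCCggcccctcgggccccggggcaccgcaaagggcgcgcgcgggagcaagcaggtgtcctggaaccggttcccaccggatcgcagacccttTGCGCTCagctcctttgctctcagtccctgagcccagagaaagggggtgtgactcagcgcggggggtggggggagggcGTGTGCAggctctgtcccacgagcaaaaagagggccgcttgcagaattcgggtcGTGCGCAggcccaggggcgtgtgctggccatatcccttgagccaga
Mt1: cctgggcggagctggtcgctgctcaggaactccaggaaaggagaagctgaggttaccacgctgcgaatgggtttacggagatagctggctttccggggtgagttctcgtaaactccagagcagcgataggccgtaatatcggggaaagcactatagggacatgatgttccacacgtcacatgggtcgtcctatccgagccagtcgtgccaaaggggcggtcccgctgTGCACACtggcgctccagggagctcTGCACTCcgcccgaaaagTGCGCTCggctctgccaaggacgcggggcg

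Messenger RNAs of the mitochondrial genome were higher in 56Fe livers. The mitochondrial DNA encodes 13 proteins, all subunits of the respiratory chain and ATP synthase, and 12 of the 13 passed, with all 13 higher, no overlap between ions in any of them, and a median difference of 1.43. The summed level of the 13 was 31564, 55246 and 47722 RPKM in the 56Fe livers and 23099, 19305 and 21835 in the 28Si livers. Mitochondrial transcripts as a whole took 6.61%, 11.6% and 10.1% of transcript reads after 56Fe and 4.88%, 4.57% and 5.51% after 28Si. The difference between ions was thus carried by all 3 mice, with 56Fe mouse 1 nearest to the 28Si mice. In the fits that left out a mouse, 10 to 13 of the mitochondrially encoded protein genes passed.

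The genes differed in how far they moved. The subunits of complex I spanned 1.05 (mt-Nd3) to 2.15 (mt-Nd4l), with mt-Nd4l at 642, 1028 and 829 RPKM against 199, 166 and 215. mt-Nd6, the only one of the 13 that the annotation places on the minus strand, was at 309.6, 555 and 516 against 145, 94.9 and 123 RPKM (1.96 ± 0.24, adjusted p = 0.000385). The ATP synthase subunits mt-Atp8 and mt-Atp6, which overlap on the chromosome so that their reads cannot be fully told apart, were higher by 1.91 and 1.75. Of the cytochrome oxidase subunits, mt-Co1 and mt-Co3 lay below the range of complex I and mt-Co2 within it. mt-Co1 was at 8719, 15549.6 and 13169.9 against 8165, 6658 and 7394 RPKM (0.78 ± 0.25, adjusted p = 0.0679) and did not pass, mt-Co3 passed with 0.85 (adjusted p = 0.0496), in 1 of the 6 fits without a mouse, and mt-Co2 with 1.10. Against control, 7 of the 13 passed in 56Fe and 0 in 28Si, with medians of 1.13 and -0.39.

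No tested nuclear gene of the respiratory chain and ATP synthase passed as higher. Of 75 tested, 0 were higher and 6 lower in 56Fe, with a median of -0.21, and 26 had an unadjusted p under 0.05. Among the 6, Cox4i1 of cytochrome oxidase differed by -0.59, Ndufb6 of complex I by -0.59 and Sdha of complex II by -0.46. The background of lower calls was 5.36% of all genes. Without 1 mouse 0 to 6 passed (0 without 28Si mouse 1 or 56Fe mouse 3, 1 without 56Fe mouse 1 or 2), and 0 on RPKM as deposited without scaling. Of 79 cytosolic ribosomal protein genes 1 was lower (Rps3a1, -0.88) and the median was -0.19. All 9 mitochondrial tRNA genes tested were lower in 56Fe, 3 past the test, with a median of -2.71. mt-Tg, the glycine tRNA, was at 4.38, 11.9 and 4.63 RPKM against 99.9, 48.2 and 38.5 (-3.11 ± 0.45, adjusted p = 0.00115). In the fit over 60 libraries the adjusted p of mt-Tg was 0.146, and its difference was -3.14 at 1 month, -2.21 at 2, -7.18 at 4, -8.39 at 9 and 0.29 at 12 months.

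Other short RNAs were lower in 56Fe more often than higher. Of 35 snoRNA, scaRNA, snRNA and misc_RNA genes tested 9 were lower and 2 higher, with a median of -0.65. The Y RNAs Rny1 (6.21, 2.22 and 3.37 against 19.6, 13.7 and 12.1 RPKM, -1.95 ± 0.33) and Rny3 (7.8, 1.83 and 4.94 against 28.5, 13.9 and 21.6 RPKM, -2.22 ± 0.65) bind the Ro autoantigen. Snora17, which guides changes to single bases of ribosomal RNA, was at 4.14, 3.76 and 2.86 against 23.6, 12.3 and 13.8 RPKM (-2.07 ± 0.19), and Snord104, of the class that guides methylation, differed by -2.40. Gm25541, an snRNA gene, and Gm26035, a misc_RNA gene, differed by -2.50 and -2.12. Rny3 passed in none of the 6 fits without a mouse, and Snord104 had an adjusted p of 0.322 in the fit over 60 libraries. In that fit Snord104 differed by -2.43 at 1 month, -2.10 at 2, -7.37 at 4, -6.77 at 9 and 0.50 at 12 months. Rny1, Rny3, Snora17, Gm25541 and Gm26035 also had negative differences at 2, 4 and 9 months. RNAs shorter than the fragments of a library are captured unevenly, and the part of this in the difference was not tested.

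**Figure D2:**
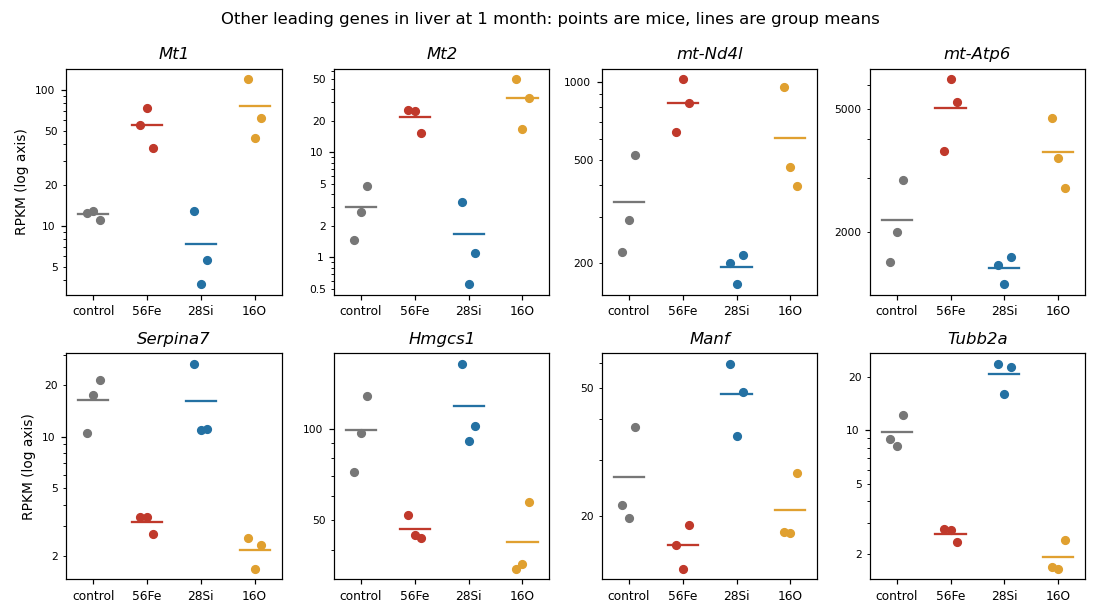
RPKM of 8 genes on log axes at 1 month, with a point for each mouse and a line at each group's mean for control, 56Fe, 28Si and 16O livers. The 3 56Fe mice lie above the 3 28Si mice for Mt1, Mt2, mt-Nd4l and mt-Atp6 and below them for Serpina7, Hmgcs1, Manf and Tubb2a.

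Chaperones and folding enzymes of the ER were lower in 56Fe. Of 21 endoplasmic reticulum chaperones and their partners tested, 12 were lower and 0 higher, 20 had a negative difference, and the median was -0.53. Hspa5 (BiP), the main ER chaperone of the Hsp70 family, was at 139, 144 and 163 RPKM after 56Fe and 319.8, 204 and 346 after 28Si (-0.87 ± 0.19, adjusted p = 0.0129). Manf, a secreted factor induced by ER stress, was at 16.3, 13.7 and 18.9 against 59.5, 35.4 and 48.7 RPKM (-1.47 ± 0.19, adjusted p = 0.000551). In both genes all 28Si mice were above all 56Fe mice. Creld2 (-1.11), Sdf2l1 (-0.93) and Hyou1 (-0.81) followed, as did the co-chaperones Dnajc3 (-0.71) and Dnajb11 (-0.70), the disulfide isomerase Pdia4 (-0.64) and Hsp90b1 (-0.53), the Hsp90 of the ER. Sel1l (-0.35), Syvn1 (-0.56) and Edem1 (-0.52) act in the removal of misfolded proteins.

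Against control, the median of these ER genes was -0.09 in 56Fe and 0.43 in 28Si, with 0 and 1 genes past the test. The 1 gene was Sdf2l1 (1.07, adjusted p = 0.0436). The count of lower ER chaperones was 5 to 11 in fits without 1 mouse (5 without 28Si mouse 1 and also without 56Fe mouse 1 or 2) and 5 on RPKM as deposited without scaling. Cytosolic heat shock chaperones were lower too, in 6 of 19 with 0 higher and a median of -0.42. They were Hsph1 (4.71, 3.92 and 5.32 against 10.6, 7.14 and 11.8 RPKM, -0.99 ± 0.18), Hspa8 (-0.93), Hsp90aa1 (-0.92), Hsp90ab1 (-0.61) and their partners Stip1 (-0.60) and Ahsa1 (-0.44). In fits without 1 mouse 1 to 7 of these heat shock chaperones passed, 1 without 28Si mouse 3 or without 56Fe mouse 1 or 2, and on RPKM as deposited 2 did.

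The promoter of Creld2 (chr15:88819396-88819695, plus strand) is shown for its ER stress response element (CCAAT and CCACG with 9 bases of any kind between them, both strands), a word read by ATF6. It was found in 0.119% of all promoters and in 5 of the 10 ER genes that passed and have an entry (Creld2, Dnajc3, Hsp90b1, Hspa5 and Syvn1). Among all 18 tested ER genes with an entry 8 held it, so Calr, Canx and Pdia6 held it too and did not pass. Hyou1 and Manf had no entry.
Creld2: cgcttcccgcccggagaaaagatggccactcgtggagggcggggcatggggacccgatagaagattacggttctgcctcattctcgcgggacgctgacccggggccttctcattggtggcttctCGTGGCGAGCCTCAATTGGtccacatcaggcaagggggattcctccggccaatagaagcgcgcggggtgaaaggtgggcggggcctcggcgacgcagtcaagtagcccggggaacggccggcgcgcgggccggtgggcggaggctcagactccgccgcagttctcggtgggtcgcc

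Genes of cholesterol synthesis and its control were lower in 56Fe. All 25 tested genes of the list had a negative difference, 14 passed, and the median was -0.58. The summed level of the list was 846 to 951 RPKM after 56Fe and 1184 to 1755 after 28Si. Hmgcs1, which makes the precursor HMG-CoA, was at 52.3, 44.9 and 43.7 against 164, 91.6 and 102 RPKM (-1.24 ± 0.19, adjusted p = 0.00135). Mvd, the decarboxylase that makes isopentenyl diphosphate, was at 3.53, 3.65 and 2.63 against 9.38, 8.42 and 9.03 RPKM (-1.38 ± 0.21, adjusted p = 0.00152). Fdps, which joins isoprene units to farnesyl diphosphate, was at 23.7, 17.9 and 20.4 against 48.6, 37.4 and 44.4 RPKM (-1.01 ± 0.13, adjusted p = 0.000399). No 56Fe mouse reached the lowest 28Si mouse in any of these 3.

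Further members that passed were Idi1 (-0.97), Sqle (-0.76), Hsd17b7 (-0.74), Insig1 (-0.73), Fdft1 (-0.71), Pmvk (-0.70), Acat2 (-0.69), Sc5d (-0.68), Mvk (-0.62), Nsdhl (-0.58) and Srebf2 (-0.48), the last of which encodes the factor that switches on the others. Against control 11 genes of the list passed in 56Fe and 1 in 28Si, with medians of -0.61 and -0.02. In fits without 1 mouse 10 to 14 of the cholesterol synthesis genes passed, and on RPKM as deposited 8.

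The promoter of Hmgcs1 (chr13:119690101-119690400, plus strand) is shown for its sterol regulatory element (TCACNCCAC, both strands), a word bound by SREBP2. It was found in 1.24% of all promoters and in 1 of the 11 cholesterol genes that passed and have an entry. Fdft1, Fdps and Sqle had no entry.
Hmgcs1: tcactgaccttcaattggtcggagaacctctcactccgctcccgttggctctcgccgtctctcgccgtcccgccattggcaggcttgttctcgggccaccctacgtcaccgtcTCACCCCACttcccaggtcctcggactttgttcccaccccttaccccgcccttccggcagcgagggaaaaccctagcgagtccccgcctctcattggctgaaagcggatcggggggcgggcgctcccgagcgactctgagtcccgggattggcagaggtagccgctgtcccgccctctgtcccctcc

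**Figure D3:**
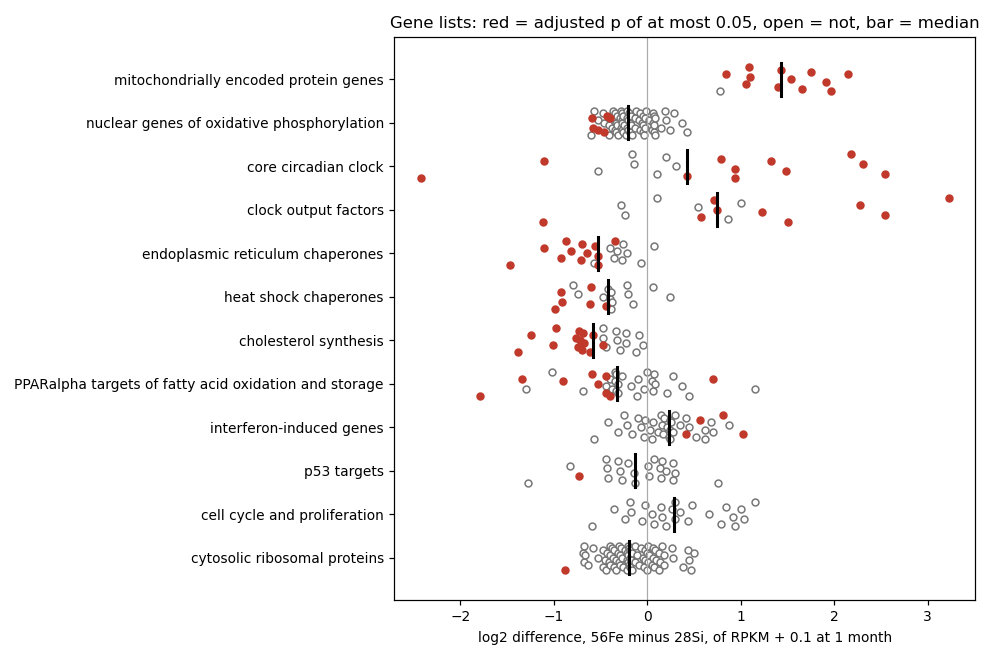
Log2 difference (56Fe minus 28Si, x axis) of each tested member of 12 gene lists at 1 month. Red points passed at an adjusted p of at most 0.05, open points did not, and a black bar marks the list's median, which is 1.43 for the mitochondrially encoded protein genes and -0.58 for cholesterol synthesis.

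Other genes of lipid and sugar handling gave fewer calls. Of 22 genes of fatty acid and triglyceride synthesis 3 were higher and 4 lower in 56Fe, with a median of -0.18. Acly, which makes cytosolic acetyl-CoA (-0.76), Elovl5 (-0.76), Agpat2 (-0.88) and Acss2 (-0.54) were lower, while Dgat2 (0.47), Pklr (0.42) and Srebf1 (0.41) were higher. Without 1 mouse 0 to 1 genes of this list were higher and 3 to 6 lower, and 0 were higher on RPKM as deposited or in the fit over 60 libraries. Srebf1 passed in 0, Pklr in 1 and Dgat2 in 2 of the 6 fits without a mouse. Of 36 genes linked to the fatty acid sensor PPARalpha 8 were lower and 1 higher, with a median of -0.32. The 1 higher gene was Ppara itself, at 66.7, 60.5 and 55.5 against 45.3, 32 and 40.4 RPKM (0.70 ± 0.11, adjusted p = 0.00141). The lower ones included Ehhadh of peroxisomal oxidation, at 31, 29.1 and 30.1 against 70.1, 49.1 and 57.9 RPKM (-0.90 ± 0.10), the thioesterase Acot1 (-1.34) and the kinase Pdk4 (-1.79), which blocks pyruvate oxidation. Acaa1b, Acadm, Acadvl, Hadhb and Plin5 were lower by smaller amounts (-0.40 to -0.59). Without 1 mouse 4 to 6 of the PPARalpha genes were lower (4 without 56Fe mouse 1, and 5 without 56Fe mouse 2 or 28Si mouse 1), and on RPKM as deposited 4 were lower and 0 higher. Acadm passed in 0 of the 6 fits without a mouse.

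Elovl3, an elongase of very long fatty acids with a daily rhythm in liver, was at 29.3, 18.5 and 23.1 RPKM after 56Fe and 143, 125 and 99.9 after 28Si (-2.32 ± 0.22, adjusted p = 5.81e-05). The 28Si mice were above the controls (37, 30.1 and 59.6 RPKM) as well (1.54, adjusted p = 0.00341). Gys2, the liver glycogen synthase, was at 66.3, 61.8 and 62.8 against 41.1, 28.4 and 29.2 RPKM (1.03 ± 0.11, adjusted p = 0.000107). Ppp1r3b, which brings the activating phosphatase to glycogen, went the other way, at 10.4, 5.09 and 6.73 against 23.2, 15.9 and 24.5 RPKM (-1.48 ± 0.21, adjusted p = 0.00113). Among 18 genes of glucose handling 1 was higher (the transporter Slc2a2, 0.51) and 4 were lower. G6pc, which releases free glucose (-1.18), Igfbp1 (-1.23) and Ldha (-0.48) were among the lower ones, and G6pc and Igfbp1 each passed in 1 of the 6 fits without a mouse. Of the glucose list 0 to 3 genes were lower without 1 mouse, 0 of them without 28Si mouse 1 or 56Fe mouse 3, and Slc2a2 passed in 2 of those fits.

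Of 22 genes of bile acid synthesis and transport 4 were lower and 0 higher. Nr0b2 (SHP), which represses bile acid synthesis, was at 7.68, 4.01 and 3.95 against 16.3, 12.9 and 23.9 RPKM (-1.71 ± 0.50, adjusted p = 0.0479), and did not pass in any fit without 1 mouse. Abcb11, the bile salt export pump, was at 74.9, 69.5 and 68.4 against 166, 105 and 113 RPKM (-0.76 ± 0.11, adjusted p = 0.00115) and passed in all 6. Baat (-0.45) and Hsd3b7 (-0.67) were the other two. Without 1 mouse 1 to 3 of the bile acid genes passed, 1 without 56Fe mouse 2. Among 31 Cyp2 and Cyp3 drug-metabolizing genes and their regulators, 4 were higher and 4 lower, and reads of the Cyp2a and Cyp2c genes may be split between near-identical copies. Cyp2a5, the coumarin hydroxylase, was at 162, 169 and 185 against 88.8, 50.1 and 66.9 RPKM (1.42 ± 0.15), and its neighbor Cyp2g1 was higher by 1.39. The nuclear receptor gene Nr1i3 (CAR) was higher by 0.80 and Por, the electron donor of these enzymes, was the last of the 4, while Cyp2c37, Cyp2c38, Cyp2c39 and Cyp2c68 were lower (-1.42 to -0.50). Without 1 mouse 3 to 4 genes of the Cyp list were higher and 1 to 5 lower, 1 lower without 28Si mouse 1 or 2 or 56Fe mouse 1 or 2.

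Serpina7, the thyroxine-binding globulin of plasma, was at 3.37, 3.39 and 2.68 RPKM in 56Fe livers and 26.7, 10.9 and 11 in 28Si livers (-2.14 ± 0.25, adjusted p = 0.000268). Controls were at 10.5, 17.4 and 21.5 RPKM and 16O mice at 2.53, 1.67 and 2.31, so the 28Si mice lay with the controls. Tubb2a, a beta-tubulin, was at 2.78, 2.74 and 2.35 against 23.8, 16.1 and 22.7 RPKM (-2.87 ± 0.15, adjusted p = 7.61e-08), and controls, at 8.94, 8.22 and 12.2 RPKM, lay between the ions. The tubulin genes Tuba4a (-1.13, adjusted p = 0.000293) and Tubb4b (-1.08, adjusted p = 0.00135), chosen after their values were seen, were lower too. Smad7, an inhibitor of TGF-beta signaling, was higher at 4.09, 4.49 and 4.79 against 2.49, 1.92 and 1.88 RPKM (1.12 ± 0.16). Lgalsl, a galectin-like gene, differed by -1.85.

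Of the larger differences that lie outside the groups above, Pcsk4, a proprotein convertase, was at 9.71, 8.79 and 6.83 against 1.46, 2.21 and 2.03 RPKM (2.15 ± 0.21). Bmf, a BH3-only activator of cell death, was at 8.28, 9.26 and 12 against 5.87, 1.22 and 2.91 RPKM (1.83 ± 0.32). Osbpl3, an oxysterol-binding protein, was at 8.0, 8.24 and 5.99 against 2.65, 1.44 and 2.81 RPKM (1.74 ± 0.21). In each of these 3 genes the ions did not overlap, although the highest 28Si mouse of Bmf stood above the other two.

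Few genes of DNA damage and cell division passed. Of 23 p53 targets 1 was lower (Trp53inp1, -0.73) and 0 were higher, with a median of -0.13. Of 34 DNA repair genes 2 were higher, Dclre1c (Artemis, 0.79) and Neil2 (0.83), and of 26 cell cycle genes 0 passed in limma, with a median of 0.28 and a range of -0.60 to 1.15. Without 1 mouse the DNA repair count was 0, except without 28Si mouse 2, where it was 2, and in the fit over 60 libraries 0 were higher. Neil2 passed in 0 of those 6 fits and Dclre1c in 1. In the cell cycle list 9 genes had an unadjusted p under 0.05, and limma-voom on estimated reads called 7, all higher in 56Fe. The share that passed in limma was below the background of 9.37% in each of these 3 lists.

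Genes of inflammation gave a mixed picture. Of all genes tested, 4.00% passed as higher in 56Fe, 5.36% as lower and 9.37% in either direction. Of 39 interferon-induced genes 4 were higher and 0 lower, with a median of 0.23, namely Irf7, the regulator of type I interferon (0.81), Xaf1 (1.02), Ly6e (0.57) and Tap1 (0.42). Irf7 was at 10.3, 16.2 and 9.29 RPKM after 56Fe and 6.39, 6.22 and 8.0 after 28Si. Without 1 mouse 0 to 3 of the interferon genes passed (0 without 28Si mouse 1 or 56Fe mouse 2, 1 without 28Si mouse 2, 2 without 28Si mouse 3 or 56Fe mouse 3), on RPKM as deposited 1 and in the fit over 60 libraries 0. Of the 6 fits without a mouse, Xaf1 passed in 4, Irf7 in 3, Ly6e in 1 and Tap1 in 0. Of 34 positive acute phase genes 1 was higher and 3 lower, and on RPKM as deposited or in the fit over 60 libraries 0 passed. Without 1 mouse 0 to 2 of them were higher and 0 to 1 lower. Of 22 coagulation, 22 NF-kB and 26 PI3K and insulin signaling genes 0 passed in limma. Their members below an unadjusted p of 0.05 numbered 4, 3 and 4 in that order, with 0, 2 and 0 calls from limma-voom. Of 23 B cell receptor signaling genes 1 was higher and 0 lower, a share below the 9.37% of all genes. It was Blnk, an adaptor of that receptor (2.22, 1.41 and 1.26 against 0.480, 0.533 and 0.688 RPKM, 1.40 ± 0.28). Of 13 immediate early genes Junb (0.73, in 3 of the 6 fits without a mouse) and Maff (1.47, in all 6) were higher.

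Of marker genes of other liver cell types few passed. The summed levels of each list, as deposited and without scaling of libraries, overlapped between the ions. Sums after scaling were not compared. Of 15 Kupffer cell markers tested 1 passed (C1qc, 0.63), and their summed level was 89.5 to 124.7 RPKM after 56Fe and 75.3 to 98.6 after 28Si. Of 17 sinusoidal endothelial markers 1 passed (Eng, 0.40), with 90.1 to 109.5 RPKM against 90.2 to 111.5. Of 17 stellate cell and collagen markers 1 passed (Ecm1, 0.69), with 102.1 to 113.1 RPKM against 81.2 to 117.4, and Timp1 was at 0. Of the 6 fits without a mouse C1qc passed in 1, Eng in 0 and Ecm1 in 5. Past the test or not, 11 Kupffer cell markers were higher in 56Fe and 4 lower (median 0.22). The counts were 15 and 2 for stellate cell and collagen markers (median 0.21) and 11 and 6 for endothelial markers (median 0.08). Of all 11539 genes 5734 were higher. Of the B cell, T cell, neutrophil, cholangiocyte and adipocyte markers, 2, 1, 1, 5 and 1 of 14, 16, 13, 12 and 11 reached the level needed for a test and 0 passed, with 0 at an unadjusted p under 0.05 and 1 adipocyte or mesothelial gene called by limma-voom. Mzb1 of plasma cells and Cfd of adipocytes were at 0 in all 6 livers. All 6 red cell markers tested were lower in 56Fe (median -0.86) and 0 passed in limma or limma-voom, 3 with an unadjusted p under 0.05, with 31 to 76.6 RPKM against 53.1 to 97.4. Their part in the differences above was not tested.

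**Figure D4:**
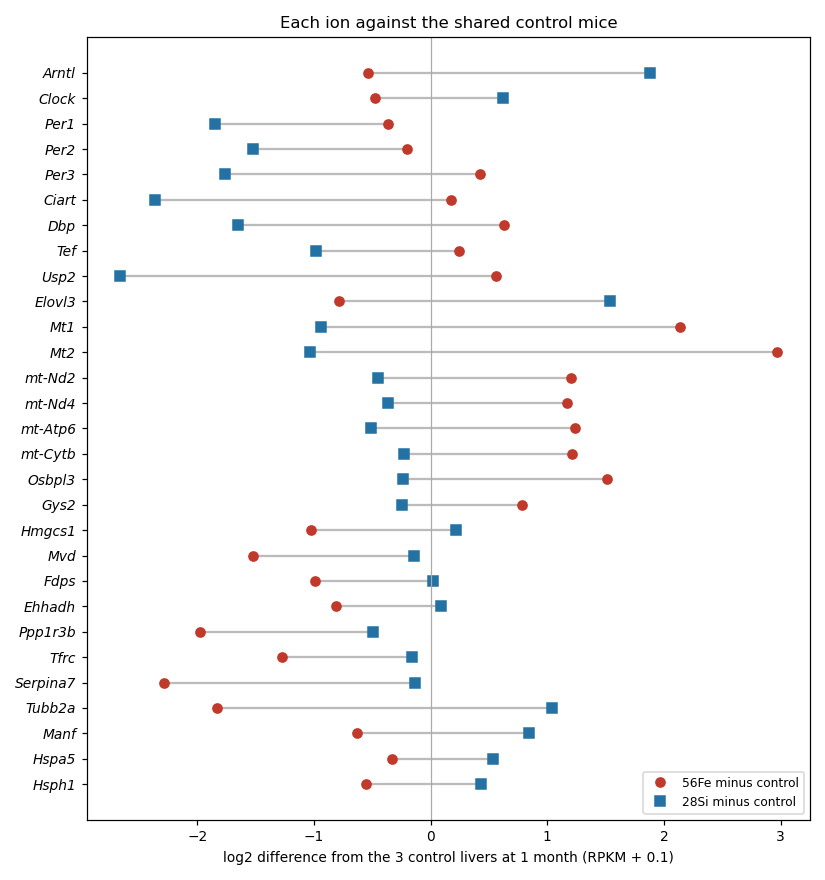
Log2 difference from the 3 control livers at 1 month (x axis) for 29 genes, with red circles for 56Fe and blue squares for 28Si, both against the same controls. For the clock genes at the top the 28Si square lies farther from 0 than the 56Fe circle, and for Mt1, Mt2, the mitochondrial mRNAs, Hmgcs1, Mvd, Fdps, Tfrc and Serpina7 the 56Fe circle does.

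Each ion was also set against the control livers, which both comparisons share. In 56Fe livers 58 genes passed with a fold of at least 2 and in 28Si livers 31, against 182 between the ions. The count for 28Si was 81 without control mouse 3 and 18 without control mouse 2, and that for 56Fe was 24 without 56Fe mouse 2 and 36 without 56Fe mouse 3. Gys2 was 0.79 from control in 56Fe (adjusted p = 0.00271) and -0.24 in 28Si (adjusted p = 0.28). Ppp1r3b was -1.97 in 56Fe (adjusted p = 0.00116) and -0.49 in 28Si (adjusted p = 0.271). Tubb2a passed in both with opposite signs, at -1.83 in 56Fe (adjusted p = 6.23e-05) and 1.04 in 28Si (adjusted p = 0.00341).

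The difference between the ions was set against the same difference at 2, 4, 9 and 12 months, with other mice at each time, in a fit over all 60 libraries and 12731 genes. In that fit 185 genes passed with a fold of at least 2 between the ions at 1 month, and 38, 43, 39 and 0 at the later times, the last in limma with 546 genes at an unadjusted p under 0.05. Against the mean of the 4 later times, 116 genes had a different 56Fe-28Si difference at 1 month, 68 with a higher and 48 with a lower one, and 450 (3.53%) passed without the fold limit. Of the core clock genes 11 were among the 450, of the ER chaperones 8, of the mitochondrial protein genes 1 (mt-Nd6) and of the cholesterol genes 2. The median of all genes moved by -0.16 on RPKM as deposited, where the split was 36 higher and 77 lower, and with upper-quartile scaling it was 80 and 40. Libraries differed by time as well. The share of mapped pairs in annotated transcripts was 49.6% to 66.4% at 1 month over both ions. It was 49.7% to 62.3% at 2, 56.0% to 84.3% at 4, 74.2% to 84.1% at 9 and 74.3% to 83.7% at 12 months. With this share as a covariate 97 genes passed in place of 116, and 248 in place of 450.

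Named genes of the clock show the size of this. Arntl differed by -2.48 at 1 month, 1.07 at 2, 1.58 at 4, -0.58 at 9 and -0.53 at 12 months (adjusted p of the shift 0.00011). Ciart differed by 2.58, -0.23, -1.87, 0.18 and 0.67 at the same times (adjusted p of the shift 0.00025), opposite in sign to Arntl at each time. Among ER genes Manf differed by -1.5, 0.17, -0.65, -0.13 and 0.48 (adjusted p of the shift 0.00293). The mitochondrial mRNAs mt-Nd2, mt-Nd4l, mt-Nd6, mt-Atp6 and mt-Atp8 kept a positive sign at all times. mt-Atp6 differed by 1.73, 1.18, 0.90, 0.70 and 0.26 (adjusted p of the shift 0.0646), and Mt2 by 4.00, -1.54, 1.78, 1.34 and 0.04 (adjusted p of the shift 0.166), so a shift was not shown for either.

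**Figure D5:**
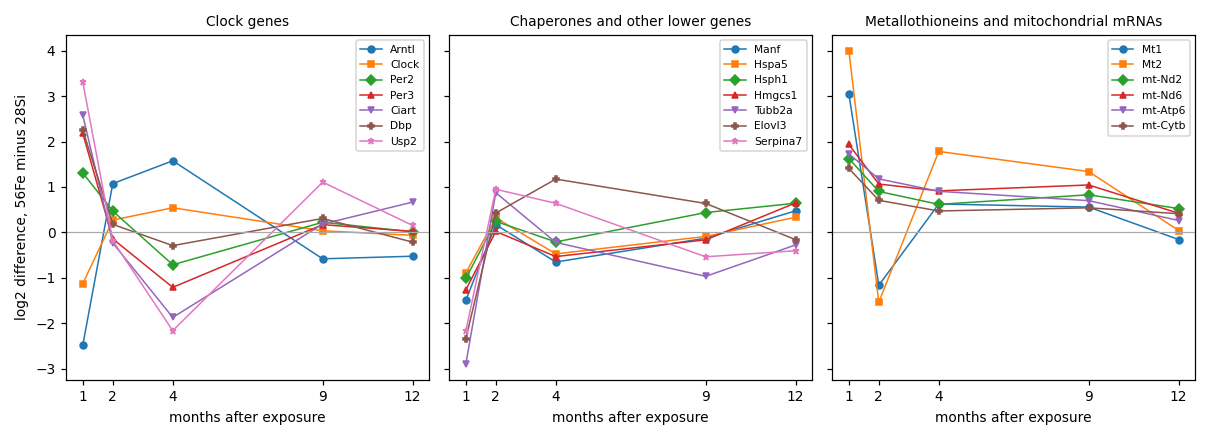
Log2 difference between 56Fe and 28Si livers (y axis) at 1, 2, 4, 9 and 12 months after exposure (x axis) for clock genes (left), chaperones and other genes lower in 56Fe (middle), and metallothioneins and mitochondrial mRNAs (right), from the fit over 60 libraries. Arntl runs from -2.48 at 1 month to 1.58 at 4 months, and the mitochondrial mRNAs shown stay above 0 throughout.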

How the data were processed

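Ribosome-depleted liver RNA of 60 mice was sequenced. The authors trimmed 14 bases from reads, mapped them in CLC Genomics Workbench to GRCm38 with annotation 97 at 95% length and similarity, and deposited RPKM per transcript. Counts were not used here, so RPKM were tested on a log scale. RPKM of 123811 transcripts were summed to 38204 genes, scaled by unweighted trimmed means (30% of ratios, 5% of levels), filtered at 0.5 RPKM in at least 3 libraries and fitted as log2(RPKM + 0.1) in limma 3.58.1 (R 4.3.3, empirical Bayes with a trend) over the 12 libraries of 1 month, or all 60 for times, with Benjamini-Hochberg adjustment. Low values were whole multiples of 1 read (within 0.02) in 99.8% to 99.92% of cases in the libraries of 1 month, which gave the depth. Groups came from the labels. Genes named are the 12 largest folds per direction among genes called with a mean log2 of at least 1 and no overlap, and list members past the test or with the smallest p. Members and lists were chosen with earlier results of these data known. The fit was tested on simulated data. Alternatives were other scalings, filters and pseudocounts, limma-voom, a covariate, a replicate block, other library sets and leaving out each mouse. Some genes are not reported here. Positions are from GENCODE M21.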

Additional observations from a re-analysis of the deposited data

Results flagged for a closer look

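The difference between 56Fe and 28Si livers at 1 month was tested against the mean of the same difference at 2, 4, 9 and 12 months, and 116 genes passed with a shift of at least 2-fold. The values here are those shifts on the log2 scale, each past an adjusted p of 0.05 in limma over 60 libraries.

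Among the genes named above, clock genes were the following. The shift was -2.87 for Arntl and -1.33 for Clock. It was 2.90 for Ciart, 2.47 for Per3, 1.31 for Per2 and 2.06 for Bhlhe41. Of clock outputs it was 3.58 for Usp2, 2.26 for Dbp, 2.05 for Wee1, 1.27 for Tef and -1.32 for Tfrc. Arntl and Clock thus went one way and Ciart, Per2 and Per3 the other. Mice of the later times are other animals, and the hour of killing is not given in the sources used here, so its part was not tested.

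Chaperone genes passed with -1.46 for Manf, -1.10 for Syvn1 and -1.29 for Hsph1. Metabolic genes passed with -2.86 for Elovl3, -1.98 for Pdk4, -2.31 for Nr0b2, -1.25 for Tat, 1.11 for Gys2 and 1.95 for Osbpl3. The plasma carrier Serpina7 had -2.34, the metal exporter Slc30a10 -1.35 and the mitochondrial mt-Nd6 1.08. The tubulin genes had -2.75 for Tubb2a, -1.16 for Tuba4a and -1.14 for Tubb4b. Lgalsl had -2.13 and the long RNA Mirg 2.15.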

How the results depend on the processing

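The count of 182 genes past both limits between 56Fe and 28Si was 137 to 241 under 12 of 13 other settings and 82 with a pseudocount of 1 RPKM. Without scaling it was 163 (78 higher, 85 lower), with upper-quartile scaling 181 (119 higher, 62 lower) and without 1 mouse 138 to 197. Without scaling 370 genes passed without the fold limit and without a filter on low values 646, in place of 1081, and limma-voom gave 1680. The shift against later times (116) was 180 without a filter and 57 with a pseudocount of 1, and 63 (without 56Fe mouse 2 of 1 month) to 125 without 1 mouse. 56Fe against control (58) gave 31 with a pseudocount of 1, 28 in the fit over 60 libraries and 24 to 65 without 1 mouse. 28Si against control (31) gave 20 with a pseudocount of 1, 50 with limma-voom, 19 with only the groups compared, 20 in the fit over 60 libraries and 18 to 81 without 1 mouse. The cause of these moves was not tested.

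The labels number the mice 1 to 3 in each group, and with the replicate number as a block the 4 counts were 177, 121, 53 and 26. Same-numbered 56Fe and 28Si libraries had correlations of -0.035, 0.033 and -0.017 of their deviations from the group means. Those with unlike numbers had -0.105 to 0.119, and the mice were treated as unpaired. Such correlations cannot show whether equal numbers share a litter, batch or day. Of 141 named genes that passed, 70 passed in all 6 fits without a mouse and 8 in none. No named gene changed direction. Counting precision is lowest for genes near 0.5 RPKM and for short RNAs.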

Other observations

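Several gene groups not described above held members that passed between the 56Fe and 28Si livers. Of all genes tested 9.37% passed, 4.00% as higher and 5.36% as lower in 56Fe. Of 25 urea cycle and periportal amino acid enzymes 6 were lower in 56Fe and 1 higher, and without 1 mouse 1 to 7 were lower (1 without 28Si mouse 1 or 56Fe mouse 2 or 3) and 0 to 1 higher, with 0 on RPKM as deposited. Tat, which starts tyrosine breakdown, was at 217, 106 and 118 RPKM after 56Fe and 406, 207 and 299.7 after 28Si (-1.01 ± 0.23, adjusted p = 0.0152), and Cps1, the entry enzyme of the urea cycle, and Got1 differed by -0.46 and -0.68. Of 20 pericentral genes 0 passed in limma, 1 had an unadjusted p under 0.05 and limma-voom called 1. Of 14 apolipoprotein genes 2 were higher, Apoa5 (0.77) and Apoa4 (0.52). Abcg5, which exports sterols into bile, was at 27.3, 24.4 and 25.1 against 19.7, 16.1 and 15.6 RPKM (0.64 ± 0.11, adjusted p = 0.00407) and passed without each mouse in turn, while Apoa4, Cps1 and Got1 each passed in 1 of those 6 fits, Apoa5 in 2 and Tat in 3.

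Among 30 glutathione transferases and NRF2 targets 2 were higher and 2 lower, beside 4.00% and 5.36% of all genes. Nfe2l2, which encodes NRF2, was higher by 0.49 and Hmox1, the haem-degrading enzyme, by 0.65. Nfe2l2 passed in 1 and Hmox1 in 2 of the 6 fits without a mouse. In this list 0 genes were higher without 28Si mouse 1 or 2 or 56Fe mouse 1 or 2, on RPKM as deposited or in the fit over 60 libraries, and 0 to 2 were lower without 1 mouse. Cebpb, a transcription factor of the acute phase, was at 12.3, 14.2 and 14.8 against 10.9, 7.29 and 7.06 RPKM (0.79 ± 0.15, adjusted p = 0.00582). Meg3 (1.22) and Mirg (1.82), long RNAs of 1 imprinted cluster, were higher, in 1 and 3 of the 6 fits without a mouse, with Mirg at 1.16, 0.733 and 1.1 against 0.094, 0.264 and 0.324 RPKM. Of 23 junction genes 3 were lower, among them the claudin gene Cldn1, at 15.1, 18.3 and 15 against 36.5, 23.4 and 26 RPKM (-0.74 ± 0.14, adjusted p = 0.00626), and Tjp3 (-0.69), and both passed in all 6 fits without a mouse. Mup10, a major urinary protein gene with near-identical copies, differed by -1.21, the 1 of 18 Mup genes that passed, in 2 of the 6 fits without a mouse.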
